A study of Mus musculus with 2 samples.

Results

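The AP-1 transcription factor genes examined here were Fos, Fosb, Fosl1, Fosl2, Jun, Junb, Jund, Atf3, Maff and Mafk. They were followed in primary mouse osteoblasts held in medium conditioned by either of a pair of human prostate cancer cell lines. The members were taken by gene symbol: every probe set that the platform annotation assigned to 1 of these symbols alone was used, which gave 14 probe sets for 10 genes, of 34945 probe sets for 18193 genes on the array. The study asked which transcripts of bone-forming cells change under factors released by the tumour lines. Osteoblasts were grown in alpha-MEM containing fetal calf serum, differentiated to day 10 under beta-glycerophosphate at 10 mM and ascorbic acid at 50 µg/ml, starved of serum overnight and exposed for 6 hours. One group received MDA-PCa2b conditioned medium and the other received PC-3 conditioned medium; both lines derive from bone metastases, and MDA-PCa2b is known for bone-forming and PC-3 for bone-destroying lesions. Each group was 1 culture on 1 array, the mouse strain and the number of animals are not given in the sources used here, and osteoblasts without tumour-cell medium were not analysed here. A gene called higher or lower is so with PC-3 medium, the other medium being the reference, and with single arrays no test could be made.

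AP-1 is a dimer of basic leucine zipper proteins. Jun proteins (c-Jun, JunB, JunD) pair with each other or with Fos proteins (c-Fos, FosB, and FRA-1 and FRA-2, the products of Fosl1 and Fosl2), ATF3 joins Jun and other ATF partners, and the small Maf proteins MafF and MafK, which lack a transactivation domain, pair with CNC factors such as NRF2 or with each other. Many of these genes are immediate-early genes, transcribed within minutes of a growth factor, cytokine or stress signal. In the skeleton c-Fos is needed for osteoclasts, and mice that overexpress FRA-1 or a short FosB isoform gain bone.

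Of the 10 genes, 8 gave a signal above the floor on both arrays and 2, Fosb and Maff, on neither. The floor was the median signal of each array, 56.7 for MDA-PCa2b medium and 57.7 for PC-3 medium, and signals under it have no order. Among the 8 genes, 3 were at least 2-fold higher with PC-3 medium (Junb, Fosl1 and Jun), against 2.12% of the 11335 genes above the floor on at least 1 array. None was at least 2-fold lower, against 1.85% of those genes. The other 5 lay within 2-fold, and 4 of them within 1.5-fold, a range that held 87.8% of all those genes. The median log2 ratio was 0.30 over the 8 genes and -0.04 over all genes. The log2 ratio subtracts the log2 signal of the MDA-PCa2b array from that of the PC-3 array, for the probe set of highest mean signal. In RNA of a whole culture, fewer cells of a type and less RNA per cell cannot be told apart.

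**Figure D1:**
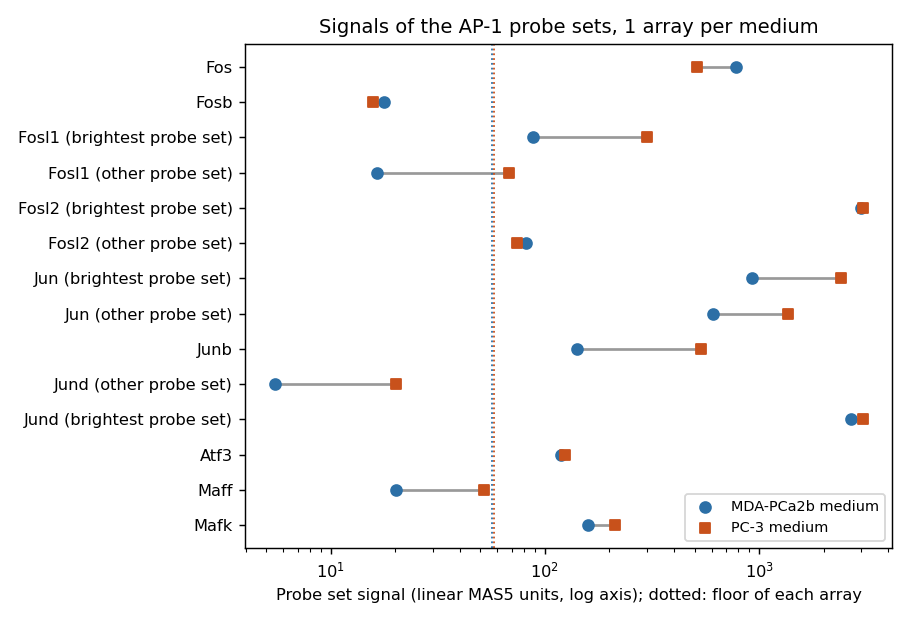
Probe set signals (linear MAS5 units on a log axis) of all 14 AP-1 probe sets with MDA-PCa2b medium (circles) and PC-3 medium (squares), 1 array each; dotted lines mark the floor of each array. Both Jun probe sets, Junb and the brightest Fosl1 probe set lie further right with PC-3 medium, Fos lies further left, and Fosb, Maff and the other Jund probe set stay below both floors.

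The promoter windows of Jun, Junb and Fos are shown because these are the genes at least 1.5-fold different that had a window in the RefSeq table (GRCm38.p6). Each window runs from 250 bases before to 50 bases after the annotated start, 5′ to 3′ on the gene's strand. Capitals mark every match, on either strand, to TGANTCA (the AP-1 site), TGACNTCA (the cAMP response element type) or its half-site TGACG. The Jun window lies at chr4:95052173-95052472 on the minus strand, the Junb window at chr8:84978699-84978998 on the minus strand and the Fos window at chr12:85473640-85473939 on the plus strand.
Jun: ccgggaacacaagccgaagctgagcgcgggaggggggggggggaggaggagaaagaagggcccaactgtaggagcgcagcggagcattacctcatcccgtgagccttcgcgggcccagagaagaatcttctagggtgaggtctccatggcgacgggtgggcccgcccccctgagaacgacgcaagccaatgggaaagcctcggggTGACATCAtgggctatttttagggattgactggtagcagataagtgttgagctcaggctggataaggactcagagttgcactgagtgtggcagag
Junb: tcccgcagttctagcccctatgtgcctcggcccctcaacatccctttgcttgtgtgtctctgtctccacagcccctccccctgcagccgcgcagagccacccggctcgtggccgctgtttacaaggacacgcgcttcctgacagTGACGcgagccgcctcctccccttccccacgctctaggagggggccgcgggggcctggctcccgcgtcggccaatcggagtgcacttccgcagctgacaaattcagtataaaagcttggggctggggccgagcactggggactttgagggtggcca
Fos: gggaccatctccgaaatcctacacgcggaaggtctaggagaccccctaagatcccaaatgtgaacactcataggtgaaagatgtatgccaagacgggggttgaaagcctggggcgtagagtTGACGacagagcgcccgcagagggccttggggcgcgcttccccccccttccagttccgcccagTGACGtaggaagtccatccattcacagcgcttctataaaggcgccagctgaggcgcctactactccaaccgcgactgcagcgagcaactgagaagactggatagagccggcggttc

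The Jun window held TGACATCA at bases 206 to 213, a TGACNTCA match, and no TGACG. The Junb window held TGACG at bases 145 to 149, and the Fos window held it at bases 122 to 126 and 185 to 189. TGACNTCA occurred in 8.83% and TGACG in 20.8% of all 32851 windows in the table. Windows were found for 9 of the 10 genes, 11 windows in all with 3 for Maff, and none was used for Fosl1. TGACG was found for 6 of these 9 genes (Fos, Fosb, Junb, Atf3, Maff and Mafk) and TGACNTCA for 2 (Jun and Maff). By window, the unit of the percentages, TGACG was found in 7 of the 11 and TGACNTCA in 3. The full element TGACGTCA in a Maff window counts under both motifs. GGGCGG, the GC box, in 35.7% of windows, was matched for 7 genes (8 windows), CCAAT, in 37.4%, for Atf3, Jun and Junb, and TATAAA, in 13.6%, for Fos and Junb. TGANTCA, present in 7.81% of all windows, and the CArG box of serum response factor, present in 1.63%, had no match in the 11 windows. Sites more than 250 bases before a start lie outside the windows and were not searched, so these genes may still have such sites. The kappaB site of NF-kB, in 8.46% of windows, was matched for Fos, Fosb, Fosl2 and Maff, and TTCNNNGAA, the STAT site, in 8.30% of windows, was matched for Maff. These matches describe letters in a fixed window and nothing about binding. Of the motifs searched, CCAAT was the one that the Jun and Junb windows shared.

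Junb, which encodes a Jun protein that can weaken or replace c-Jun in AP-1 dimers and is needed for osteoblast proliferation, had the largest ratio of the family. Its only probe set read 141.5 on the MDA-PCa2b array and 537 on the PC-3 array. The signal was thus 2.50 times the floor in the lower culture and 9.31 times the floor in the higher one. The difference was 3.79-fold (log2 ratio 1.92), which placed Junb at rank 53 from the top of 11335 genes.

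Jun, which encodes c-Jun, the strongest activator of the Jun proteins and a target of the JNK kinases, was measured by a pair of probe sets. The brighter one gave 929 under MDA-PCa2b medium and 2417 under PC-3 medium, 2.60-fold higher (log2 ratio 1.38, rank 137). The other gave 606 and 1363, 2.25-fold higher (1.17). The array with PC-3 medium was the higher one for both probe sets, and their log2 ratios lay 0.21 apart. Over 4924 genes with several probe sets above the floor on both arrays, the log2 ratios within a gene had an SD of 0.24. That SD was 0.18 in the upper tertile of signals, where both Jun probe sets lay, 0.24 in the middle tertile and 0.30 in the lower one. This SD describes 1 pair of arrays and says nothing of how cultures vary. An antisense gene named Junos, beside Jun, had signals of 35.7 and 48.0, below both floors; it was looked up after the values of Jun were seen.

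Jund, which encodes the Jun protein made at a steady level in resting cells, differed little. Its brighter probe set gave 2679.5 under MDA-PCa2b medium and 3057 under PC-3 medium, 1.14-fold higher (log2 ratio 0.19). The other probe set gave 5.475 and 20.1 and was below the floor on both arrays, so no ratio was taken from it. The Jun family was therefore uneven. The log2 ratio of Junb exceeded that of Jund by 1.73 and that of Jun exceeded it by 1.19, where the scatter between probe sets would give a difference of 2 ratios an SD of 0.34. Junb and Jun differed from each other by 0.54 in log2 ratio, and the lower Jun probe set lay further from Junb.

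Fosl1, which encodes FRA-1, a Fos protein without a strong activation domain that is itself induced through AP-1, was the Fos gene with the highest ratio. Its brighter probe set gave 88.2 under MDA-PCa2b medium and 299 under PC-3 medium, 3.39-fold higher (log2 ratio 1.76, rank 71). The lower of these signals was only 1.56 times the floor. The other probe set gave 16.4, under the floor, on the MDA-PCa2b array and 67.7 on the PC-3 array, so its ratio is a bound of at least 1.19-fold. The array with PC-3 medium was the higher one for both probe sets, but only the brighter one measured a size. The mean of both was a log2 ratio of 1.01, the bound included, close to the 2-fold threshold.

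Fosl2, which encodes FRA-2, a Fos protein expressed in differentiated osteoblasts and tied to collagen and osteocalcin genes, differed by less than the scatter of probe sets. Its brighter probe set gave 2979 and 3046 in the same order (log2 ratio 0.03). The dimmer one gave 81.3 and 74.35, close to the floor (log2 ratio -0.13). The probe sets had opposite signs and lay 0.16 apart, so no direction is given for Fosl2.

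Fos, the gene of c-Fos, was the only one of the 8 measured genes with a ratio below 0 by the brightest probe set; with probe sets averaged, Fosl2 was also below 0, at -0.05. Its single probe set gave 779.7 on the MDA-PCa2b array and 511 on the PC-3 array, 1.53-fold lower (log2 ratio -0.61). At this 1.5-fold threshold 6.56% of all genes were lower and 5.59% higher. Fosb, another immediate-early Fos gene, had signals of 17.8 and 15.7, under the floor on both arrays. The Fos family thus spanned a wide range of ratios. Fosl1 exceeded Fosl2 by 1.73 and Fos by 2.37 in log2 ratio, against the SD of 0.34 for such a difference, and Fosl2 exceeded Fos by 0.64.

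**Figure D2:**
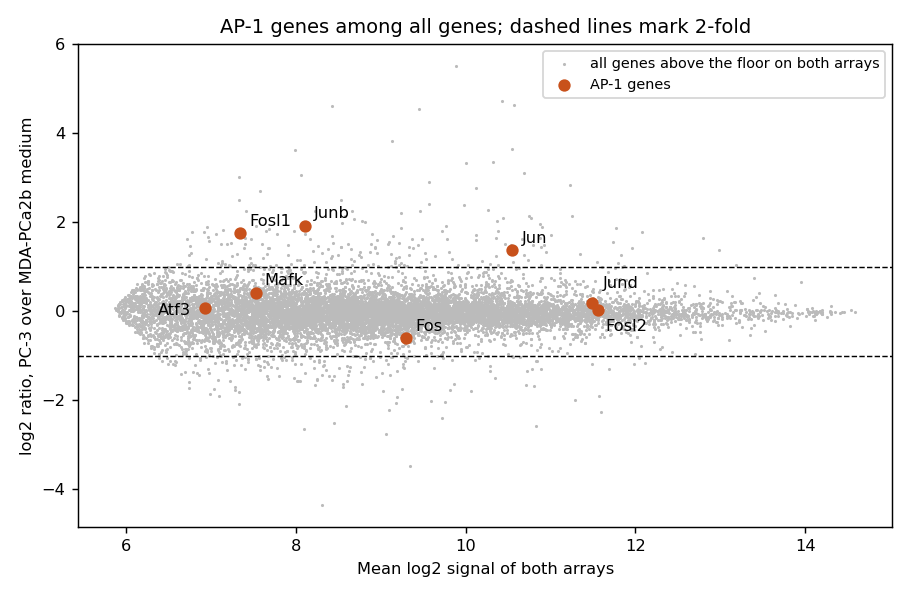
Log2 ratio (PC-3 over MDA-PCa2b medium) against the mean log2 signal of both arrays, 1 point per gene above the floor on both arrays, with the 8 measured AP-1 genes as large points; dashed lines mark 2-fold. Junb (1.92), Fosl1 (1.76) and Jun (1.38) lie above the upper line, and Fos (-0.61) lies below 0; each gene is shown by its brightest probe set, and with probe sets averaged Fosl2 was also below 0 (-0.05).

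Atf3, a stress-induced ATF gene whose product pairs with Jun proteins, had signals of 119 on the MDA-PCa2b array and 124 on the PC-3 array. The log2 ratio was 0.07, and both signals were about the same distance above the floor, 2.09 and 2.15 times. Mafk, a small Maf gene, had signals of 159.6 and 213, 1.34-fold higher (log2 ratio 0.42). This lay in the lower tertile of signals, where that SD within a gene was 0.30. Maff, the other small Maf gene and a known cytokine-induced one, had signals of 20.1 and 51.8, both under the floor, so no ratio was taken. With the floor lowered to the 25th percentile of each array the log2 ratio of Maff was 1.37, and with log2(signal + 16) it was 0.91. At the lower floor 4 AP-1 genes were at least 2-fold higher, Maff among them, beside 4.38% of all genes measured there.

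The size of the Junb and Fosl1 ratios depended on the floor, and that of Jun did not. With the floor raised to the 75th percentile of each array, Jun kept its log2 ratio of 1.38, Junb became a bound of at least 0.84, and Fosl1 was above the floor on neither array. The count of genes at least 2-fold higher was then 1, beside 1.77% of all genes measured at that floor.

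**Figure D3:**
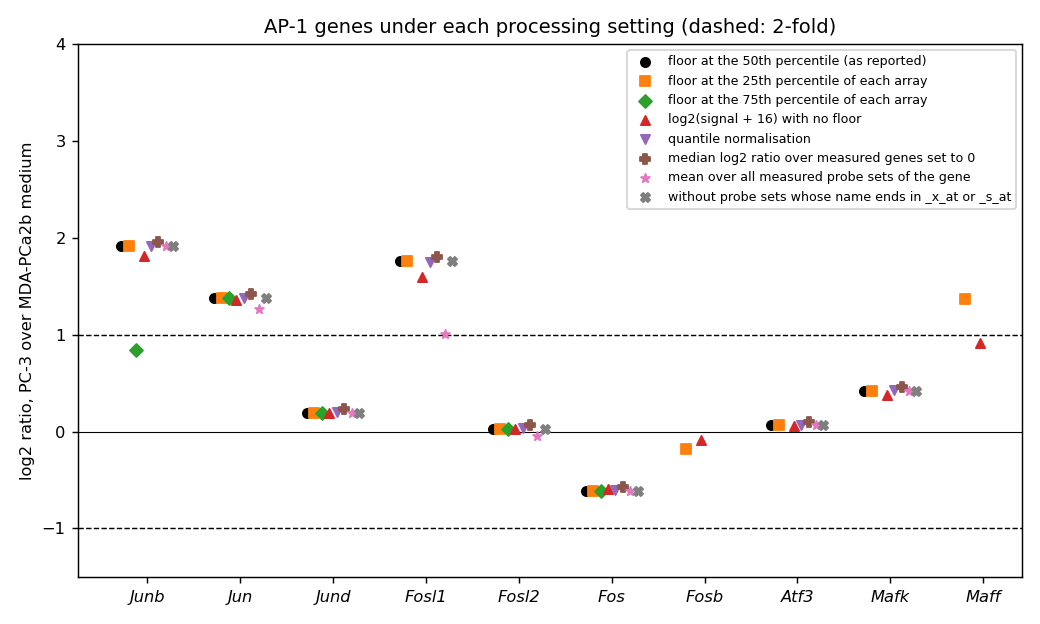
Log2 ratio (PC-3 over MDA-PCa2b medium) of each AP-1 gene under each processing setting, 1 symbol per setting; dashed lines mark 2-fold, and a missing symbol means that the gene was at the floor on both arrays. Jun lies between 1.27 and 1.42 in every setting shown, the Junb value of 0.84 is a bound, Fosl1 falls to 1.01 when probe sets are averaged, and Maff has a value in 2 settings.

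Of 9 genes for other partners of AP-1 dimers 6 were above the floor and none was 2-fold different by its brightest probe set, with a median log2 ratio of 0.08. The largest ratios were those of Batf, which encodes a leucine zipper partner of Jun proteins (signals of 187 and 280.2, log2 ratio 0.59), and Ddit3, the gene of CHOP (339 and 494, log2 ratio 0.54). Atf2, a partner of c-Jun, had a log2 ratio of -0.14, but its other probe sets ran up to 0.98. Of 11 further Maf and CNC genes, a list that includes the CNC partners of small Mafs, 9 had a probe set and 6 were above the floor. By the brightest probe sets none was 2-fold different, and the median log2 ratio was 0.49. Bach1, a repressor that pairs with small Mafs, had a log2 ratio of 0.57 by its brightest probe set and 1.01, past 2-fold, by the other. Nfe2l2, the gene of NRF2, gave 2337 and 3718 (0.67), and Mafg, the remaining small Maf gene, 265 and 407 (0.62, and 0.18 by its other probe set).

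Genes of the kinases that switch on AP-1 lay on both sides of 0. In the MAP kinase cascade list 19 of 23 genes had a probe set and 17 were above the floor. Their median log2 ratio was 0.01 (-0.06 with probe sets averaged). Of the 17 genes, 1 was at least 2-fold higher and none lower, beside 2.12% and 1.85% of all genes. The higher one was Map3k8, which encodes the kinase TPL2, with signals of 31.7, under the floor, and 355, at least 6.26-fold higher. At 1.5-fold the counts were 2 higher and 2 lower, beside 5.59% higher and 6.56% lower over all genes. Map3k1, a kinase gene upstream of JNK, had a log2 ratio of 0.60. Map2k6, a p38 activator gene, gave -0.89, and Rps6ka5, the gene of the kinase MSK1, -0.86 (-0.74 by its other probe set). The JNK genes, whose products phosphorylate c-Jun, gave -0.08 for Mapk8 (other probe sets from -0.36 to 0.05) and 0.10 for Mapk9 (from -0.40 to 0.13). These genes were picked after their values were seen. Transcript levels give no measure of kinase activity.

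Among transcription factors that act on the Fos and Jun promoters, 16 of 17 were measured, with a median log2 ratio of 0.07 (-0.06 with probe sets averaged). Of these 1 was at least 2-fold lower and none higher, beside 1.85% and 2.12% of all genes. The lower one was Mef2c, a MADS-box factor gene that also acts in bone, with signals of 1996 and 577. It was 3.46-fold lower, and its other probe sets gave log2 ratios from -2.15 to -1.30. Srf, the gene of serum response factor, which drives Fos transcription, gave 429.6 and 307 (log2 ratio -0.48, and -0.42 by its other probe set). By the brightest probe sets Stat3 had the highest ratio of this list, with signals of 1262 and 2121 (log2 ratio 0.75). The other Stat3 probe sets ran from -0.38 to 0.27. Srf and Stat3 too were picked after their values were seen. Genes for turnover of Fos and Jun proteins and of their AU-rich transcripts were all measured, 10 of 10, with none past 2-fold and a median of 0.09. By the brightest probe sets the largest were Zfp36l1, an RNA decay factor gene (0.43), and Hnrnpd, another AU-rich element binding protein gene (-0.34). Their other probe sets gave 0.86 and -0.47. Khsrp, also in this list, gave 0.33, and its other probe sets 0.01 and 0.62.

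Of 24 known AP-1 target genes 21 had a probe set and 19 were above the floor. By the brightest probe sets 6 were at least 2-fold higher and none lower, beside 2.12% and 1.85% of all genes. The median log2 ratio was 0.40, and the list was chosen with earlier results of these data known. The largest were Mt2, a metallothionein gene (26.6-fold), Ccl2, a monocyte chemokine gene (14.3-fold), Mmp3, the stromelysin gene (at least 9.25-fold), and Il6 (3.48-fold). For Ccnd1, the cyclin D1 gene, the brightest probe set read 1.61-fold lower and the others gave log2 ratios of -0.80 and -1.11. Gja1, the connexin 43 gene, had a log2 ratio of 0.40, and its other probe sets ran from 0.48 to 1.44. Mmp13, the collagenase gene of osteoblasts and a long-known target of c-Fos and c-Jun, had signals of 16381 and 16833 (log2 ratio 0.04), near the top of the range, where arrays can saturate. Ccnd1, Gja1 and Mmp13 were picked after their values were seen. Matrix genes tied to FRA-1 and FRA-2 in bone lay in the same range of signals, so their small ratios do not show equal levels. Mgp, the matrix Gla protein gene, gave 14336 and 15885 (0.15), and Col1a2 gave 22696 and 22343 (-0.02), while another probe set of Col1a2 gave -0.59. These targets also respond to other factors, so their levels do not measure AP-1 activity.

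Other immediate-early genes lay on both sides of 0. All 20 were measured, and by the brightest probe sets 7 were at least 2-fold lower and 1 at least 2-fold higher, Ier3, a survival gene (3.13-fold). Over all genes 1.85% were at least 2-fold lower and 2.12% at least 2-fold higher. This list and the others in this paragraph were chosen with earlier results of these data known. Nr4a3 (at least 3.004-fold), Nr4a1 (2.89-fold) and Klf2 (2.77-fold), all transcription factor genes, were among the 7 lower ones. Egr3, picked after its values were seen, was at least 2.76-fold lower by its brightest probe set. The other Egr3 probe set gave a log2 ratio of 0.04. The median log2 ratio of all 20 genes was -0.13, but 0.07 with the floor at the 75th percentile, beside 0.30 and 0.19 for the AP-1 genes. In the integrated stress response list, in which ATF4 induces Atf3, all 14 genes were measured and the median was -0.01, with 2 at least 2-fold higher, Cebpb (4.06-fold) and Gadd45a (2.79-fold), and 1 lower, Sesn2 (2.41-fold, and -0.22 on the log2 scale by its other probe set). Of 12 antioxidant genes that small Maf dimers bind, 9 had a probe set and 8 were above the floor. All 8 had a ratio above 0 by the brightest probe set, with a median of 0.47. The ratios of Gclc (0.07), Gclm (0.10) and Txnrd1 (0.16) were smaller than the SD of 0.24 between probe sets of a gene. Of the 8 genes, 2 were at least 2-fold higher, Gsr, for glutathione reductase (5.29-fold), and Hmox1, for haem oxygenase (2.71-fold). The other probe sets of Gclc (-0.11) and Gclm (-0.2) were below 0, and those of Srxn1, Txnrd1, Gsr and Fth1 were above 0.

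**Figure D4:**
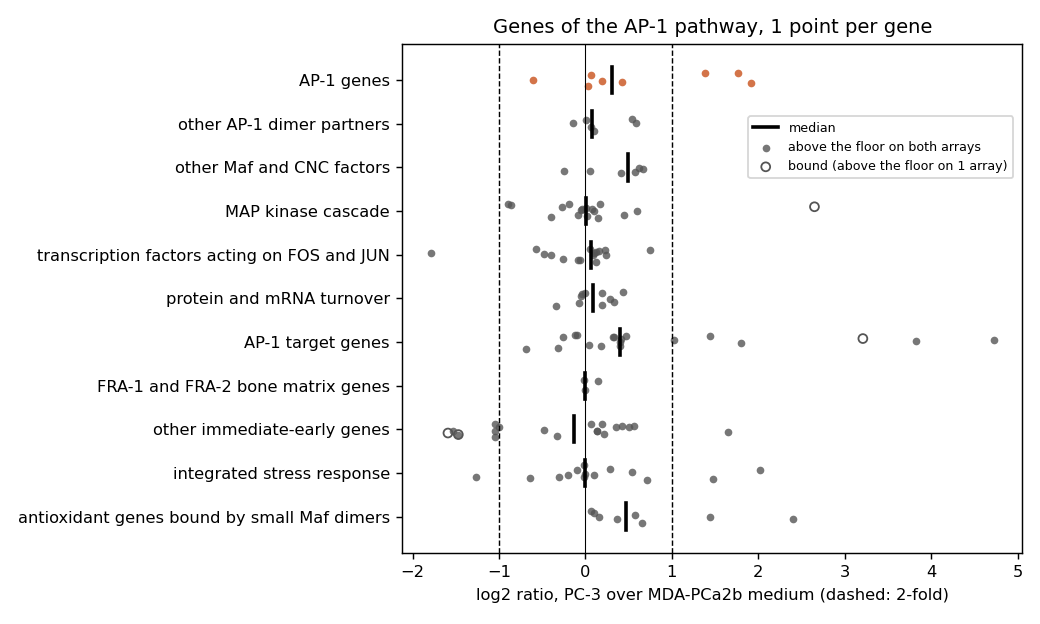
Log2 ratios (PC-3 over MDA-PCa2b medium) of the measured genes of each list, 1 point per gene, with bars at the medians and dashed lines at 2-fold; open circles are bounds, from genes above the floor on 1 array. The AP-1 genes have a median of 0.30 and split into 3 above the upper line and 5 within it, while the medians of the kinases (0.01), the transcription factors acting on Fos and Jun (0.07) and the other dimer partners (0.08) are lower, and those of the other Maf and CNC factors (0.49), the antioxidant genes (0.47) and the AP-1 targets (0.40) higher.

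The labelled cell type was checked against marker genes. Of 8 osteoblast markers 5 had a probe set of their own, and all 5 exceeded the floor on each array, with a summed signal of 68165 on the MDA-PCa2b array and 64816 on the PC-3 array. All 5 had a ratio below 0 by the brightest probe set, from -0.68 for Sp7, an osteoblast transcription factor gene (1.60-fold lower), and -0.41 for Alpl, the alkaline phosphatase gene, to values near 0 for Sparc and Col1a1, which carry most of the sum. The other probe sets of Sparc gave 0.03 and 0.33, that of Ibsp -0.36 and that of Col1a1 -0.15. The median over all genes was -0.04. All 7 macrophage markers were also above the floor, with summed signals of 14812 and 15089.7 and log2 ratios from -0.23 to 0.59. Chondrocyte markers were present too, with sums of 5619 and 4958 and 1 of 4, Col10a1, 2.62-fold lower. The 3 adipocyte markers with a probe set, of 4 listed, had sums of 426 and 699. Fabp4 (log2 ratio 0.98) carried most of each sum, and Adipoq gave 0.47. Pparg went the other way, with signals of 60.7 and 38.3, the latter under the floor (at least 1.05-fold lower). The 4 endothelial markers were under the floor on both arrays. Signals under the floor have no order, so these markers show neither presence nor absence of endothelial cells. Which cells contributed the Junb, Jun and Fosl1 signals was not tested.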

How the data were processed

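RNA of 1 osteoblast culture per medium was hybridised to 1 Affymetrix mouse array. The deposited values are linear intensity signals of probe sets; the submitters' processing notes name GCOS 1.4 and MAS5 as the authors' software. Detection calls and the scaling target are not given in the sources used here; the mean without the lowest and highest 2% of probe sets was 298.7 on both arrays. Of 45101 probe sets 64 controls were removed. Of the rest 34945 had 1 gene in the platform annotation, 932 several and 9160 none listed; only the first were named. Signals under the 50th percentile of their array were set to that floor, log2 was taken, and the probe set of highest mean signal stood for its gene. A ratio with 1 array at the floor is a bound. The number of arrays limits the precision: 1 per group gives no SD between cultures and no p-value.

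Every member was described with all its probe sets. In the other lists the measured genes at least 2-fold different were named, up to 4 by size, or, with none that different, the 2 of greatest size. Further genes of these lists, among them Atf2, Bach1 and Khsrp, were named outside this rule with their values known. The members and lists were chosen with earlier results of these data known, and some lists share genes. A list gene has a probe set only where the annotation gives it 1 symbol; older names were matched through the RefSeq gene table. Alternatives were other floors, log2(signal + 16), quantile normalisation, centring on the median, averaging probe sets, dropping the _x_at and _s_at probe sets, and other fold thresholds. Promoter windows came from RefSeq (GRCm38.p6). The scripts, run with Python 3.11.15, numpy 2.4.6 and pandas 2.3.3, were tested on simulated data.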

Additional observations from a re-analysis of the deposited data

How the results depend on the processing

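Of 148 values recomputed under the alternatives, 144 moved by less than the scatter between probe sets (counts, by no more than 1.5 times), and 4 moved further. Many of the 144 could not move. The AP-1 genes have no _x_at or _s_at probe set, and a lower floor leaves genes already above both floors unchanged. Centring shifted every ratio alike. Genes that lost their value under an alternative are not among the 148. Small values changed sign in 6 cases, each within that scatter: Fosl2 (0.03) gave -0.05, the kinase median (0.01) -0.06 and that of the Fos and Jun regulators (0.07) -0.06 with probe sets averaged; the immediate-early median (-0.13) gave 0.07 and the stress response median (-0.01) 0.05 at the 75th percentile floor, and the latter 0.03 with the median of all genes set to 0. No AP-1 gene past 2-fold changed sign. Under a floor at the 75th percentile, the count of AP-1 genes at least 2-fold higher was 1 in place of 3, and the log2 ratio of Junb was a bound of 0.84; fewer genes are above that floor, and Fosl1, Atf3 and Mafk gave no value there. With the floor at the 25th percentile Maff gave 1.37 and Fosb -0.18, and with log2(signal + 16) they gave 0.91 and -0.09; neither has a value at the floor used. Averaging probe sets gave 1.01 for Fosl1, because its second probe set enters as a bound. At a 1.5-fold threshold 1 gene, Fos, counted as lower in place of 0. The median of all genes moved by no more than 0.04 under any alternative. Signals near the floor limit the size of the Junb, Fosl1, Atf3 and Mafk ratios. No paired analysis was possible because each group was a single array, and no replicate could be left out.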
